A study of Mus musculus with 4 samples.

Results

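The genes described here carry the insulin signal in fat cells from its receptor to glucose uptake: Insr, Irs1, Irs2, Irs3, Grb14, Pik3r1, Akt1, Akt2, Slc2a4 and Slc2a1. These 10 genes were taken by symbol, and all 10 were among the 18194 genes named on the arrays. They were covered by 24 probe sets, and the brightest of these, by mean log2 signal over the 4 arrays, stands for its gene. Biotin-labelled total RNA from the epididymal fat pad, the visceral depot beside the testis, was hybridised to Affymetrix mouse expression arrays. C57Bl/6J mice received a high-fat diet with 60% of energy as fat from the age of 9 weeks for 21 weeks, with 10 mice on each diet. The high-calcium whey diet held 1.8% calcium and whey protein isolate, and 2 arrays carried that label. The standard high-fat diet held 0.4% calcium, and 1 array carried that label. The labels name whey protein for the high-calcium diet alone, so calcium and whey differed together and their parts cannot be told apart. The labels of the remaining array do not settle its diet. They say that 2 mice per diet were profiled, which would make it the second control, but its own title names dietary calcium and dairy proteins, wording that a high-calcium array also carries. It is called the unassigned array and entered no comparison.

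Insulin binds the insulin receptor, a tyrosine kinase, which phosphorylates the insulin receptor substrates. These dock PI3-kinase, whose lipid product recruits the Akt kinases to the membrane, and Akt in turn releases stored vesicles that carry the transporter GLUT4 to the cell surface. Fat is a site of insulin-stimulated glucose uptake, and loss of this response is a mark of obesity on a high-fat diet.

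Values are the deposited signals, linear intensities whose scaling the sources used here do not give. A signal counted as above background where it exceeded the median of its array, which was 0.0963 and 0.0628 on high-calcium replicates 1 and 2, 0.0624 on the standard array and 0.0585 on the unassigned array. By this measure 10463 genes were above background on all 4 arrays. Differences are log2 signals of the high-calcium arrays minus the standard array, tested by limma over all genes with Benjamini-Hochberg adjustment. The spread came from the 2 high-calcium arrays alone, so the number of arrays limits every value, and a difference between diets cannot be told apart from a difference between single mice. The labels give no batch. The adipocyte markers Adipoq, Cidec, Lep, Pparg, Fabp4, Lipe and Retn were above background on all 4 arrays, 7 of 7 measured of 9 listed, with summed signals of 139 and 126 on the high-calcium arrays, 122 on the standard array and 117.5 on the unassigned array. Of 6 mesothelial markers, all above background, 5 were higher on both high-calcium arrays, with median differences of 1.31 on replicate 1 and 0.58 on replicate 2. Krt19 was the exception, at 1.98 and -1.25. The part of this in the values of Insr, Irs3, Akt1 and Slc2a4, which were also higher on both arrays, was not tested. Mesothelial markers summed to 4.998 and 2.10 on the high-calcium arrays and 1.75 on the standard array, with 2.33 on the unassigned array. Markers of the epididymal and efferent duct summed to 10.02 and 0.191 on the high-calcium arrays and 1.66 on the standard array, with 0.239 on the unassigned array. Most of the sum on replicate 1 was Defb42, at 9.55, and most of that on the standard array was Adgrg2, at 1.53. Adgrg2 was lower on both high-calcium arrays, at 0.326 and 0.140. Markers of progenitors and fibroblasts summed to 41.2 and 53.0 on the high-calcium arrays and 52.2 on the standard array, with 50.7 on the unassigned array.

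Between the diets the brake on the receptor, Grb14, was lower on both high-calcium arrays and the adaptor Irs3 was higher on both. Slc2a4, which encodes GLUT4, was higher on both by a smaller amount, and Pik3r1, the regulatory subunit of PI3-kinase, was lower on both. None of these differences passed the test. limma called 0 of the 10 genes at an adjusted p under 0.05, against 0% of all genes, and 1 of 10 at an unadjusted p under 0.05, against 4.94%. That gene, Irs2, was under background on both high-calcium arrays. Among the 9 genes above background on all 4 arrays, 4 were higher on both high-calcium arrays, where 35.4% of all genes above background were. Another 4 of these 9 were lower on both, where 27.1% were. The difference exceeded the gap between the high-calcium arrays for 5 of the 9, namely Irs3, Grb14, Pik3r1, Akt1 and Slc2a4, against 39.6% of genes above background. The median difference over the 10 genes was -0.06, and over all genes it was 0.08. Without Irs2, over the 9 genes above background, it was 0.05, against 0.03 for all genes above background.

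**Figure D1:**
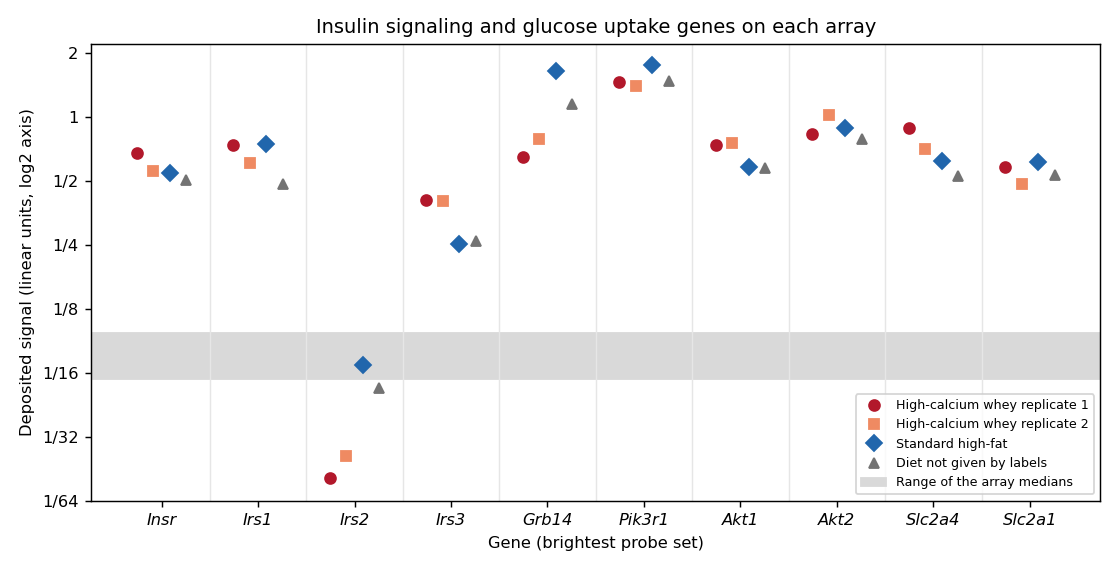
Deposited signal (linear units on a log2 axis) of the brightest probe set of each of the 10 genes, with 1 point for each array and a grey band over the range of the array medians. Grb14 was 0.652 and 0.787 on the high-calcium arrays, below 1.66 on the standard array, and both high-calcium points of Irs3 lay at 0.406 above 0.254 on the standard array, while Irs2 lay in or below the band on all 4 arrays.

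The upstream sequences of Irs3, Grb14 and Pik3r1 are shown because these genes had, among those above background, the difference furthest above 0, the one furthest below 0, and the same direction in all 3 bright probe sets. Each is the 250 bases before the annotated start in RefSeq, build GRCm38.p6, read 5′ to 3′ on the strand of the gene. RefSeq windows were matched for 8 of the 10 genes, all but Insr and Slc2a4. Capitals mark matches on either strand to the FoxO motif (TGTTTAC), the E-box (CACGTG), the GC box (GGGCGG), the CCAAT box (CCAAT) and the TATA box (TATAAA).
Irs3 (chr5:137645715-137645964, minus strand): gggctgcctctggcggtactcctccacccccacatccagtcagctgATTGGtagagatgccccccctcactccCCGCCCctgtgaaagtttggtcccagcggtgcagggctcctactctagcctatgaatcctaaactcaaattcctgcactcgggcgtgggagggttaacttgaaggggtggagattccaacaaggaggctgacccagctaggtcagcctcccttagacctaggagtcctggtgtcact
Grb14 (chr2:65022767-65023016, minus strand): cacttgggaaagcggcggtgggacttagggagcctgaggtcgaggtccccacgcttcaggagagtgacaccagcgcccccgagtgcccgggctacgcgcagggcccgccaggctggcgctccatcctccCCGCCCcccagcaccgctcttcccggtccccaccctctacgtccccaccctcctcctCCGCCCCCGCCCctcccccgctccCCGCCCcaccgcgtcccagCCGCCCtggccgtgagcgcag
Pik3r1 (chr13:101768218-101768467, minus strand): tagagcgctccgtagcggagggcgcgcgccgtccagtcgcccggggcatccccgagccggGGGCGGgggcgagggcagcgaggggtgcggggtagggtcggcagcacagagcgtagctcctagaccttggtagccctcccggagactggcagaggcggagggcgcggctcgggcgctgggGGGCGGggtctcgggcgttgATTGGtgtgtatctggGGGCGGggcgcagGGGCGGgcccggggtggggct
Irs3 had 1 GC box, with its first base 177 bases before the start, and 1 CCAAT box 204 bases before it. Grb14 had 5 GC boxes between 121 and 21 bases before the start and no other match, and 75.2% of its bases were G or C. Pik3r1 had 4 GC boxes between 190 and 21 bases before the start and 1 CCAAT box 50 bases before it. Another start of Pik3r1, not shown, had a TATA box match. Of 32851 windows of this length, 32.7% held a GC box, 33.8% a CCAAT box, 12.4% a TATA box, 6.02% an E-box and 3.17% the FoxO motif, and their median content of G and C was 52.4%. None of the 3 windows shown held the FoxO motif or an E-box. Irs1 and Irs2 each held 1 E-box. The match to the FoxO motif among the windows of these genes was in 1 of 2 windows of Akt1.

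Insr encodes the insulin receptor. Its signal was 0.678 and 0.557 on high-calcium replicates 1 and 2 and 0.544 on the standard array, with 0.506 on the unassigned array. Replicate 1 was the highest of the 4 and replicate 2 lay close to the standard array. The difference was 0.18 (SE 0.36, 95% interval from -1.14 to 1.49, adjusted p = 0.9999 by limma), made of 0.32 on replicate 1 and 0.03 on replicate 2. It turned to -0.14 when each array was centred on its median, a scaling that moved the median of all genes from 0.08 to -0.24. The mean over its 3 probe sets gave 0.82. The other 2 probe sets were under background on all arrays but the unassigned one, where 1 of them just exceeded the array median at 0.0597.

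Irs1 and Irs2 encode the widely used adaptors of the receptor. Irs1 had 0.740 and 0.612 on the high-calcium arrays and 0.752 on the standard array, with 0.483 on the unassigned array. High-calcium replicate 1 and the standard array were nearly level, and the unassigned array was the lowest. The difference was -0.16 (SE 0.35), made of -0.02 and -0.30. Irs2 had 1 probe set, at 0.0199 and 0.0255 on the high-calcium arrays and 0.0682 on the standard array, with 0.0531 on the unassigned array. It exceeded the array median on the standard array alone, so the level on the high-calcium arrays is known only as not above background. No fold is given, because the standard signal did not exceed the mean background level of the high-calcium arrays. The fitted difference of -1.60 (SE 0.38, unadjusted p = 0.0374, adjusted p = 0.979 by limma) is therefore no measure of its size.

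Irs3 encodes an adaptor that is abundant in rodent fat cells. It had 0.406 on both high-calcium arrays and 0.254 on the standard array, with 0.261 on the unassigned array. The unassigned array was level with the standard array here, and the high-calcium arrays stood apart from both. The difference was 0.68 on each replicate, a 1.60-fold higher signal (SE 0.32, 95% interval from -0.50 to 1.86, adjusted p = 0.9999 by limma). The high-calcium arrays differed by a log2 value of 0.001, and the SE was set mainly by the spread of other genes. Irs3 was 1 of 9 genes at least 1.5-fold higher on both arrays, against 2.11% of genes above background, and 5.83% of those genes differed by at least as much in either direction. The difference was 0.36 after centring on array medians, with 0.05 on replicate 1 and 0.67 on replicate 2. It was 0.56 after centring on the adipocyte markers. Irs3 had only this probe set.

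Grb14 encodes an adaptor that binds the active receptor and inhibits its kinase. It had 0.652 and 0.787 on the high-calcium arrays and 1.66 on the standard array, with 1.16 on the unassigned array. Both high-calcium arrays lay below the standard array, as for 27.1% of genes above background. The unassigned array lay between the high-calcium arrays and the standard array. The difference was -1.21 (SE 0.35, 95% interval from -2.52 to 0.10), a 2.31-fold lower signal, with -1.35 on replicate 1 and -1.07 on replicate 2. It did not pass limma's test (unadjusted p = 0.0588, adjusted p = 0.9999). When limma fitted a trend of variance on signal with robust estimation, the unadjusted p was 2.16e-04 and the adjusted p 0.282, the lowest adjusted p of any of the 10 genes over the 8 alternatives with a test, and its highest adjusted p over these was 0.999999. Grb14 was 1 of 9 genes at least 1.5-fold lower on both arrays, against 1.12% of genes above background, and 0.812% of those genes differed by at least as much in either direction. It was lower on both arrays under all 3 other scalings, at -1.24 after quantile normalization, -1.53 after median centring and -1.32 after centring on the adipocyte markers. Its other probe set was under background on all 4 arrays.

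Of all genes above background on the 4 arrays, the profile of Grb14 was matched most closely by Bcl2l11, Ackr4 and Il13ra2. Likeness was the root mean square distance between log2 profiles centred on their own means, and it was 0.11, 0.12 and 0.12 over the 4 arrays. Bcl2l11 had 0.625 and 0.869 on the high-calcium arrays and 1.502 on the standard array, with 1.06 on the unassigned array. Like Grb14, it was highest on the standard array and next highest on the unassigned array. No gene came within 0.1 of Grb14, which spanned the widest range of the 9 genes.

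In whole tissue, fewer cells of a type and less RNA per cell cannot be told apart. All 8 measured endothelial markers were above background on every array. Of these 7 were lower on both high-calcium arrays too, and Kdr was higher on both, by 0.04 and 0.29. The summed signal of the 8 was 2.96 and 2.74 on the high-calcium arrays and 3.98 on the standard array, with 2.63 on the unassigned array. Tie1, which defines endothelium, was at 0.108 and 0.104 on the high-calcium arrays and at 0.179 on the standard array, with 0.104 on the unassigned array. The part of this in the values of Grb14, Pik3r1, Irs1 and Slc2a1, all lower on both arrays, was not tested.

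Pik3r1 encodes the regulatory subunit that binds PI3-kinase to the receptor substrates. Its brightest probe set had 1.46 and 1.40 on the high-calcium arrays and 1.77 on the standard array, with 1.48 on the unassigned array. The standard array was the highest of the 4, and the other 3 were nearly level. The difference was -0.31 (SE 0.32, 95% interval from -1.49 to 0.88, adjusted p = 0.9999 by limma), with -0.27 and -0.34 on the replicates. All 3 probe sets of Pik3r1 above background on the 4 arrays were lower on both high-calcium arrays. A second had 0.405 and 0.297 on the high-calcium arrays and 0.631 on the standard array, with 0.371 on the unassigned array. Another had 0.500 and 0.471 on the high-calcium arrays and 0.639 on the standard array, with 0.498 on the unassigned array. Their differences were -0.86 and -0.40. These probe sets share a gene and are no replicates of the diet. The fourth was at 0.0241 and 0.0725 on the high-calcium arrays, under background on replicate 1, and at 0.280 on the standard array, with 0.0958 on the unassigned array. The mean over all 4 probe sets gave a difference of -1.08.

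**Figure D2:**
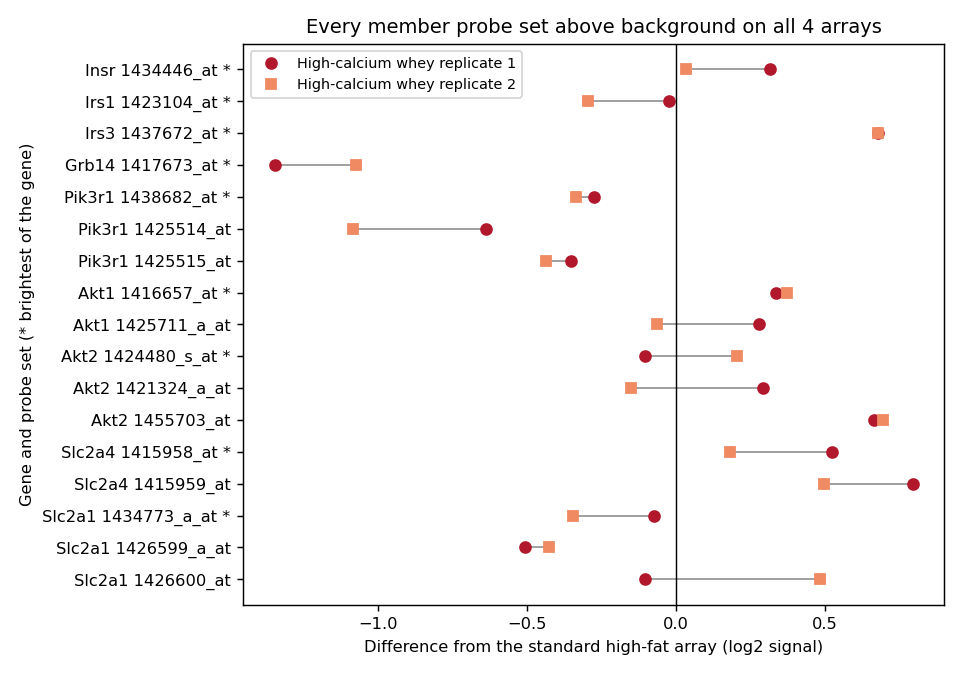
Difference of each high-calcium array from the standard array (log2 signal, a line joins the 2 arrays) for the 17 probe sets of these genes that were above background on all 4 arrays. The 3 probe sets of Pik3r1 lie left of 0 and the 2 of Slc2a4 right of 0 on both arrays, while probe sets of Akt1, Akt2 and Slc2a1 lie on both sides.

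Akt1 and Akt2 encode kinases that pass the signal on from PI3-kinase, and Akt2 is the main form for glucose uptake in fat. Akt1 had 0.737 and 0.755 on the high-calcium arrays and 0.584 on the standard array, with 0.579 on the unassigned array. The high-calcium arrays agreed closely and lay above the other 2. The difference was 0.35 (SE 0.32, adjusted p = 0.9999 by limma), and after median centring it was 0.04, with -0.29 on replicate 1. A second probe set above background on all 4 arrays did not repeat this, at 0.28 on replicate 1 and -0.06 on replicate 2. Akt2 had 0.831 and 1.03 on the high-calcium arrays and 0.893 on the standard array, with 0.793 on the unassigned array. The standard array lay between the high-calcium arrays. The difference was 0.05 (SE 0.36, 95% interval from -1.29 to 1.39). The 3 probe sets of Akt2 disagreed, since the dimmest, at 0.130 and 0.133 on the high-calcium arrays and 0.0819 on the standard array, had a difference of 0.68.

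Slc2a4 encodes GLUT4, the transporter that insulin brings to the surface of fat and muscle cells. It had 0.895 and 0.707 on the high-calcium arrays and 0.623 on the standard array, with 0.529 on the unassigned array. The order ran from replicate 1 down to the unassigned array. Both high-calcium arrays lay above the standard array, as for 35.4% of genes above background. The difference was 0.35 (SE 0.37, 95% interval from -1.02 to 1.73, adjusted p = 0.9999 by limma), with 0.52 on replicate 1 and 0.18 on replicate 2. The second probe set had 0.397 and 0.323 on the high-calcium arrays and 0.229 on the standard array, with 0.262 on the unassigned array, a difference of 0.65. Both probe sets were thus higher on both high-calcium arrays, and they share a gene. Scaling decided the direction on replicate 1. After median centring Slc2a4 was at -0.10 on replicate 1 and 0.17 on replicate 2, with a mean of 0.04, and after centring on the adipocyte markers it was at 0.39 and 0.09.

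The summed signals of muscle markers stood highest on high-calcium replicate 1, where Slc2a4 was highest too. Of 8 skeletal muscle markers 6 were above background on replicate 1 and 3 on each of the other arrays. Their summed signal was 4.85 and 1.57 on the high-calcium arrays and 1.31 on the standard array, with 1.36 on the unassigned array. The summed signal of 8 smooth muscle markers was 61.9 and 8.94 on the high-calcium arrays and 10.2 on the standard array, with 7.23 on the unassigned array. Of the markers of fast skeletal muscle, Tnnc2 had 2.49 and 0.0158 on the high-calcium arrays and 0.0227 on the standard array, with 0.0416 on the unassigned array. Ckm, the muscle creatine kinase, had 0.419 and 0.0836 on the high-calcium arrays and 0.0375 on the standard array, with 0.0296 on the unassigned array. Both were above background on replicate 1 and Ckm also on replicate 2, while Myh4 and Tnnt3 were under background on all 4 arrays. Pvalb, above background on all 4 arrays, went the other way and was lowest on replicate 1. It had 0.344 and 0.839 on the high-calcium arrays and 0.572 on the standard array, with 0.677 on the unassigned array. The part of muscle in the value of Slc2a4 on replicate 1 was not tested. On replicate 2, where Slc2a4 was at 0.18, the sum of smooth muscle markers was below that of the standard array. The sum of skeletal muscle markers was above it, with Pvalb at 0.839 against 0.572 and Ckm at 0.0836 against 0.0375. The median difference of the 8 skeletal muscle markers on replicate 2 was nevertheless -0.20, so the higher sum was not shared by most of them.

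Other genes above background had profiles close to that of Slc2a4. L1cam, Phlpp2 and Flywch1 were closest, at distances of 0.0097, 0.022 and 0.022 over the 4 arrays, and 282 of 10462 genes came within 0.1. Phlpp2, which encodes a phosphatase acting on Akt, had 0.361 and 0.289 on the high-calcium arrays and 0.259 on the standard array, with 0.222 on the unassigned array. It is also in the list of phosphatases.

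Slc2a1 encodes GLUT1, which takes up glucose without insulin and is also present in endothelium. It had 0.586 and 0.485 on the high-calcium arrays and 0.617 on the standard array, with 0.537 on the unassigned array. All 4 values lay close together, and the unassigned array lay between the high-calcium arrays. The difference was -0.21 (SE 0.35, 95% interval from -1.52 to 1.10), with -0.07 and -0.35. A second probe set differed by -0.47 and another by 0.19, which was -0.10 on replicate 1 and 0.48 on replicate 2. The red blood cell markers Hba-a1 and Slc4a1 were under background on all 4 arrays, and the summed signal of the 3 measured genes of that list was 0.392 and 0.238 on the high-calcium arrays and 0.314 on the standard array, with 0.240 on the unassigned array. The endothelial markers, of which 7 of 8 were lower on both high-calcium arrays like Slc2a1, summed to 2.96 and 2.74 there. Their sum on the standard array was 3.98, and their part in the value of Slc2a1 was not tested.

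The rest of the pathway was read from 10 lists, of which 81 genes were measured under a single symbol and 73 of these were above background on all 4 arrays. limma called 0 of the 81 at an adjusted p under 0.05. At an unadjusted p under 0.05 there were 2 of the 81, against 4.94% of all genes, both higher, namely Insrr and Irs4, which were dim and named after their values were seen. Insrr, an orphan receptor related to Insr, was under background on all 4 arrays, and Irs4 exceeded the array median on high-calcium replicate 2 alone. Of the 73 genes 29 were higher on both high-calcium arrays, 18 were lower on both and 26 were split, against 35.4% higher on both and 27.1% lower on both among all genes above background. The counts of each list below stand against the same 2 shares. Under median centring the counts were 0 higher and 4 lower for the 7 phosphatases. For the 8 transcripts that answer to insulin or glucose they were 0 and 5. With that scaling 837 of all 10463 genes above background were higher on both and 4889 were lower on both. The median difference of the 73 genes as deposited was 0.07, and that of all genes above background was 0.03.

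Among receptors, Igf1r, the receptor for insulin-like growth factor 1, differed by -0.38 (SE 0.41), and Igf2r, which clears insulin-like growth factor 2, by 0.23 (SE 0.40). Of 8 adaptors above background 2 were higher on both arrays and 2 lower on both, where all genes had 35.4% and 27.1%. Sh2b2, an adaptor of the receptor in fat, was at -0.54 (-0.93 and -0.16 on the replicates). Dok1 and Grb2 were split, at -0.88 and 0.21 and at -0.10 and 0.35. Grb10, the close relative of Grb14, had 1 of the smaller differences, at -0.11 and -0.02. Grb10 was chosen for mention after its values were seen.

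Of 7 phosphatases 3 were higher on both arrays, against 35.4% of all genes above background, and 1 was lower on both, against 27.1%. Phlpp2 differed by 0.32 (SE 0.37) and Inppl1, which removes a phosphate from the lipid product of PI3-kinase, by 0.31 (SE 0.32). Ptpn2, a phosphatase of the receptor, differed by -0.22 (SE 0.32). Among 5 other PI3-kinase subunits, Pik3cd, the catalytic form of leukocytes, had 1.44 and 0.615 on the high-calcium arrays and 0.438 on the standard array, with 0.449 on the unassigned array. Its signal on replicate 1 stood apart from the other 3 arrays. B-cell markers were high on the same array, with 5 of 5 measured above background there and a summed signal of 2.57, against 0.283 on replicate 2 and 0.494 on the standard array, with 0.246 on the unassigned array. The part of B cells in the value of Pik3cd was not tested. Pik3r2 differed by 0.29 (0.58 and 0.01) and Pik3r3 by -0.26 (0.13 and -0.66).

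The list of kinases beside Akt1 and Akt2, which also holds genes that encode no active kinase, had 7 genes above background. Of these 3 were higher on both arrays (35.4% of all genes) and 2 lower on both (27.1%). Sgk1, a relative of Akt, was at -0.40 (SE 0.39), Trib3, a pseudokinase that binds Akt, at -0.38 (SE 0.32) and Rictor, a subunit of the complex that phosphorylates Akt, at 0.35 (SE 0.38). Of 12 Akt substrates 4 were higher on both and 4 lower on both, close to the 35.4% and 27.1% of all genes. Both forms of glycogen synthase kinase lay on opposite sides. Gsk3a had 1.30 and 1.09 on the high-calcium arrays and 0.890 on the standard array, with 0.903 on the unassigned array. Gsk3b had 1.502 and 1.77 on the high-calcium arrays and 2.16 on the standard array, with 1.85 on the unassigned array. Their differences were 0.42 (SE 0.35) and -0.41 (SE 0.35), and neither passed the test. Tbc1d1, a Rab GTPase activator related to that which holds back GLUT4 vesicles, differed by 0.43 (SE 0.42).

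Of 16 genes of GLUT4 vesicle traffic, all above background, 8 were higher on both arrays and 2 lower on both, against 35.4% and 27.1% of all genes above background, with a median difference of 0.10. Under median centring 1 was higher on both and 4 lower on both, where 837 and 4889 of all 10463 genes above background were. This scaling put the list at a median of -0.22, against -0.29 for the 10463 genes. Centring on the adipocyte markers gave 6 higher on both and 7 lower on both, where 2295 and 4493 of the 10463 genes were. Myo1c, a motor of vesicle fusion, had 3.85 and 3.87 on the high-calcium arrays and 2.99 on the standard array, with 3.11 on the unassigned array. The high-calcium arrays were level and above the other 2, and the difference was 0.37 (SE 0.32, adjusted p = 0.9999 by limma). Trarg1, a membrane protein of GLUT4 vesicles, differed by 0.47 (0.80 and 0.13) and Tbc1d13, a Rab GTPase activator, by 0.37 (0.54 and 0.20).

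Of 9 other facilitative glucose transporters 5 were above background on all 4 arrays, 2 of them higher on both high-calcium arrays and 1 lower on both, against 35.4% and 27.1%. The median over the 9 was 0.30, and it was -0.08 without shared probe sets, -0.02 after median centring, and 0.65 on replicate 1 alone against 0.09 on replicate 2 alone. Slc2a13, the proton myo-inositol cotransporter of the same family, had 0.174 and 0.137 on the high-calcium arrays and 0.312 on the standard array, with 0.109 on the unassigned array. The standard array was the highest, and the difference was -1.01 (SE 0.37, unadjusted p = 0.0937, adjusted p = 0.9999 by limma). Slc2a3, the transporter GLUT3 of neurons and leukocytes, had 0.718 and 0.0919 on the high-calcium arrays and 0.204 on the standard array, with 0.114 on the unassigned array, so the high-calcium arrays lay on both sides of the standard array. Slc2a10 differed by 0.37 (0.65 and 0.09).

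Hexokinases trap glucose in the cell by phosphorylation. Hk2, the insulin-responsive form, had 1.67 and 1.52 on the high-calcium arrays and 1.71 on the standard array, with 1.69 on the unassigned array, a difference of -0.10 (SE 0.33). Hk1 differed by 0.23 (SE 0.32) and Hk3, the form of myeloid cells, by -0.21, with -0.78 on replicate 1 and 0.36 on replicate 2. Macrophage markers had a summed signal of 37.7 and 61.7 on the high-calcium arrays and 58.8 on the standard array, with 60.6 on the unassigned array, with 8 of 8 above background on each. Their part in the value of Hk3 was not tested.

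Of 8 transcripts that answer to insulin or glucose 3 were higher on both arrays and 3 lower on both, against 35.4% and 27.1%. Pdk4, a kinase that shuts off pyruvate dehydrogenase and that insulin lowers, had 2.34 and 3.01 on the high-calcium arrays and 1.77 on the standard array, with 2.997 on the unassigned array. The standard array was the lowest, and the unassigned array was level with high-calcium replicate 2. The difference was 0.59 (SE 0.38, adjusted p = 0.9999 by limma). Pck1, the glyceroneogenic enzyme that insulin also lowers, differed by 0.32 (SE 0.36), and Mlxipl, the glucose-sensing factor ChREBP, by 0.28 (SE 0.32).

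**Figure D3:**
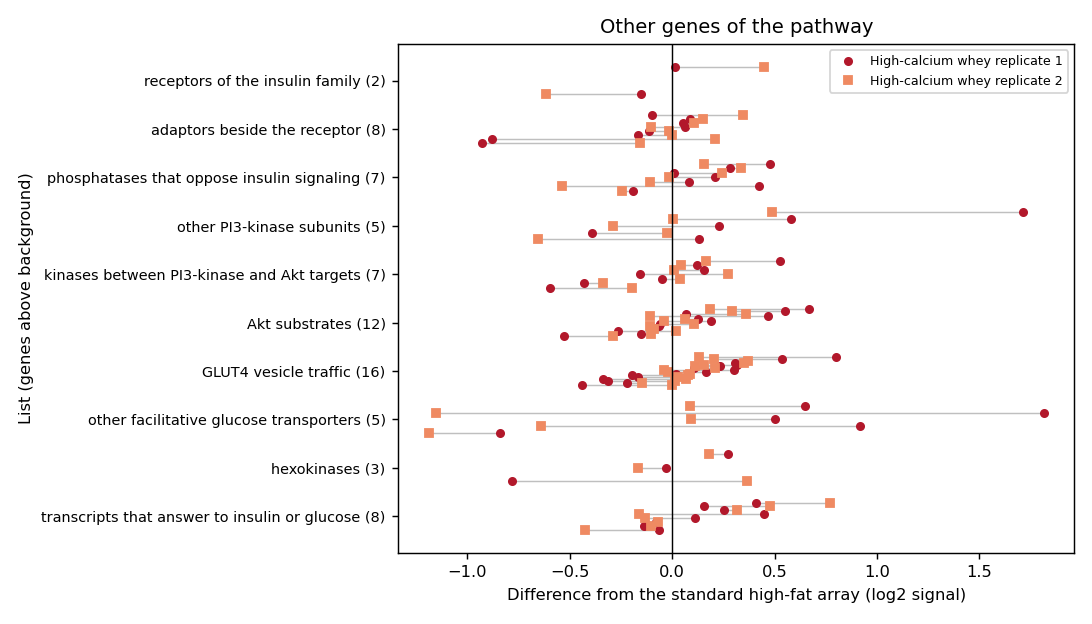
Difference of each high-calcium array from the standard array (log2 signal, a line joins the 2 arrays of a gene) for the 73 other pathway genes above background on all 4 arrays, by list, with the number of genes in brackets. Most genes lie within 0.5 of 0, and Pik3cd and Slc2a3 lie beyond 1.5 on replicate 1 alone. Of 16 genes of GLUT4 vesicle traffic 8 lie right of 0 on both arrays, where 35.4% of all genes above background do. After median centring, not drawn, 1 of 16 was higher on both, where 837 of all 10463 genes above background were.

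**Figure D4:**
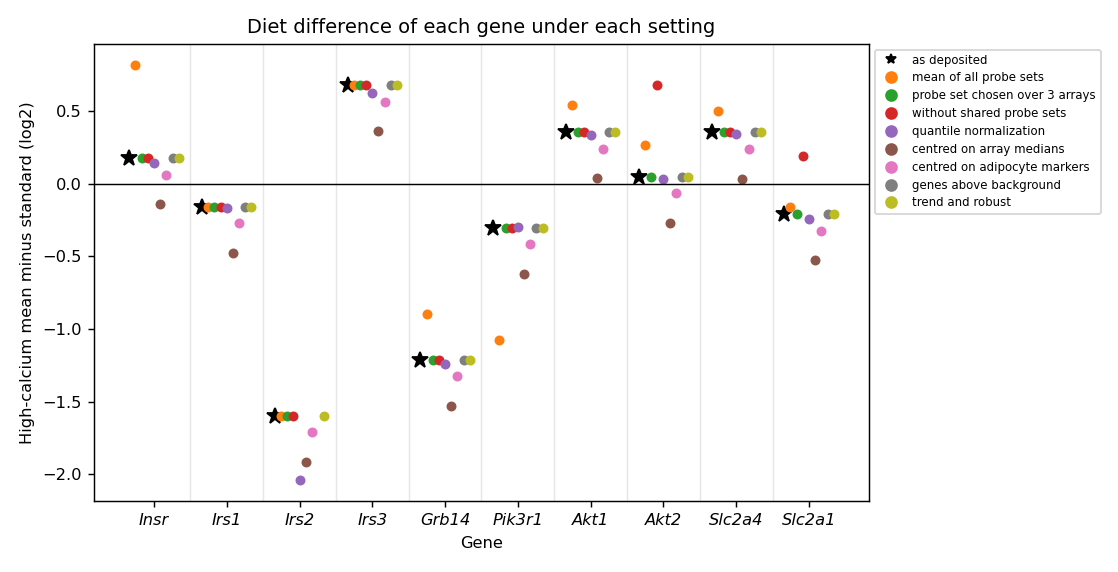
High-calcium mean minus the standard array (log2 signal) of each of the 10 genes under each setting, with the values as deposited as stars. Grb14 lies between -1.53 and -0.90 and Irs3 between 0.36 and 0.68 under every setting drawn, while Insr, Akt2 and Slc2a1 lie on both sides of 0.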

How the data were processed

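RNA of epididymal fat was hybridised to 4 arrays, namely 2 high-calcium whey arrays, 1 standard high-fat array and 1 whose labels settle no diet. The authors deposited linear intensities for 45101 probe sets. The submitters' processing notes name RMA without a version, but the deposited intensities are linear, with the lowest value of each array at its median divided by 100. The sources used here do not say how the authors scaled them.

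Intensities were log2 transformed with no added constant. Of the probe sets 34958 had 1 symbol in the platform annotation, 932 several and 9211 none, and 34754 matched a gene record by Entrez identifier. The brightest probe set over 4 arrays stood for each of 18194 genes. limma 3.58.1 (lmFit, eBayes, two-sided) in R 4.3.3 compared 2 arrays with 1, with 1 residual degree of freedom and 2.38 after moderation. It was also run on simulated data with known changes, and the outcome, not reported here, is used for no result above. Per the labels' protocols the arrays are of separate mice. The median of each array served as background. Named were the 10 genes, up to 3 genes per pathway list by size among those above background, and the 3 genes closest in profile to Slc2a4 and to the widest-ranging member. The genes, the lists and the background rule were chosen with earlier results of these data known. Motifs were chosen after the values were seen. Alternatives were other probe set rules, 3 scalings, a filter on dim genes, a variance trend and leaving out each high-calcium array. Scripts used Python 3.11.15 and matplotlib 3.10.9. Some genes of the pathway lists are not reported here.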

Additional observations from a re-analysis of the deposited data

Results flagged for a closer look

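The unassigned array, which entered no comparison, exceeded both its own median and the standard array on 6 of the 24 probe sets of these genes. The share of all probe sets that did so was not computed, so the count is no result about these genes. Its signal was 0.261 for Irs3, against 0.254 on the standard array. The other 5 probe sets were not the brightest of their genes. For Slc2a4 the signal was 0.262 on the unassigned array, against 0.229 on the standard array. For Akt1 it was 0.135, against 0.0938. For Akt2 it was 0.292, against 0.259, and 0.112, against 0.0819, on the 2 probe sets concerned. For Insr it was 0.0597, against 0.0296, close to background. With 1 array on each side these values were not tested.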

How the results depend on the processing

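No paired analysis was possible because the standard group has 1 array, so the groups share fewer than 2 replicate numbers. Leaving out 1 high-calcium array leaves 1 array against 1, with no test. Irs2 has no value once dim genes are filtered out. None of the 10 genes was called under any of the 8 alternatives with a test. Of all genes 96 were called, 61 of them higher, after centring on array medians, and 6, all lower, with the variance trend and robust estimation, against 0 in the values as reported. The causes of the shifts given here were not tested.

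Centring on array medians turned Insr to -0.14 and Akt2 to -0.27 and left 1 gene higher on both arrays, against 4. With it 837 of all 10463 genes above background were higher on both arrays, against 3701 as deposited. Akt2 was -0.064 after centring on the adipocyte markers and ranged from -0.11 to 0.20 when a high-calcium array was left out. Slc2a1 was 0.19 without probe sets shared between transcripts. The median over the 10 genes, -0.06 as reported, was 0.053 with the mean of all probe sets and 0.18 without shared ones. It was -0.37 and -0.17 under the centrings on array medians and adipocyte markers, and -0.13 to -0.048 when an array was left out. Over the 9 genes above background it was 0.049, where all genes above background had 0.030.

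Centring on array medians gave list medians of -0.086 for receptors, -0.34 for adaptors, -0.28 for phosphatases, -0.35 for PI3-kinase subunits, -0.29 for kinases, -0.27 for Akt substrates, -0.22 for GLUT4 traffic, -0.02 for other transporters (0.30 as reported), -0.41 for hexokinases and -0.25 for insulin or glucose transcripts. Centring on the adipocyte markers gave -0.087 for kinases, -0.064 for Akt substrates and -0.012 for GLUT4 traffic. The mean of all probe sets gave 0.28 for adaptors, 0.27 for phosphatases, -0.095 for kinases and -0.010 for Akt substrates. Without shared probe sets other transporters were at -0.08, Akt substrates at 0.075 and GLUT4 traffic at 0.14, and quantile normalization gave 0.014 for Akt substrates and 0.062 for GLUT4 traffic. Leaving out an array gave -0.024 to 0.23 for PI3-kinase subunits, -0.10 to 0.025 for kinases and -0.0095 to 0.0049 for Akt substrates. It gave 0.09 to 0.65 for the 9 other transporters, dim ones included, and -0.031 to 0.18 for hexokinases.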
